A study of Mus musculus with 4 samples.

Results

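Sorting nexins and vacuolar protein sorting (Vps) proteins decide what becomes of material that a cell has taken up. This report describes the probe sets whose platform annotation gives a single gene symbol made of Snx or Vps and a number, and compares them between CD8α+ and CD8α− dendritic cells of mouse spleen. The rule used the symbol alone and no measured value. It found 138 probe sets of 45037, which read 65 genes, 30 of them Snx and 35 Vps.

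Both populations came from the spleen of C57BL/6 mice, with no treatment named, and each was measured on 2 Affymetrix Mouse Genome 430 2.0 arrays, 4 in all. Age and sex of the mice and the sorting of the cells are not given in the sources used here. Nor is it said that a group's arrays hold different animals, so the p-values reflect how far these samples vary, possibly for technical reasons alone. The populations were bulk samples, in which fewer cells of a type and less RNA per cell cannot be told apart. The CD8α+ population is taken as mostly type 1 conventional dendritic cells (cDC1), known for presenting the antigens of dying cells to CD8 T cells. The CD8α− population is taken as mostly type 2 cells (cDC2).

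A protein that reaches the early endosome can be returned to the cell surface, sent back to the Golgi or passed on to the lysosome. Retromer and its sorting nexin partners collect receptors for return, the ESCRT complexes pack others into vesicles for degradation, and the tethers HOPS, CORVET, GARP and EARP bring membranes together before they fuse. Sorting nexins share a PX domain, which binds phosphoinositide lipids of endosomal membranes. In dendritic cells these routes bear on how long captured antigen lasts and where it meets MHC molecules.

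Signals were matched between arrays by quantile normalization, and a probe set was tested when its mean normalized signal reached 23.0, the median probe set. Of the 138 member probe sets, 110 passed, reading 57 genes. The other 28 did not, and Snx7, Snx11, Snx29, Snx31, Snx32, Vps13c, Vps33b and Vps37d had no tested probe set. The filter used the mean over all 4 arrays. Just below it lay a Vps29 probe set with a mean of 22.2, and just above it a Vps26b probe set with 23.6. Background was taken as the highest Bacillus spike control of each array, which lay between 21.8 and 34.5 after normalization. On all 4 arrays 77 of the 110 tested probe sets exceeded it, and none of the 28 untested ones did. The latter follows from the filter, since a probe set above background on all 4 arrays has a mean above 23.0. A difference is the log2 signal in CD8α+ cells minus that in CD8α− cells, with the standard error of the limma fit (n = 2 arrays per group). Where a gene had several tested probe sets, the one with the highest mean signal stands for it. Values per array are normalized signals, in the order CD8α+ replicates 1 and 2, then CD8α− replicates 1 and 2.

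The arrays of the groups differed in quality, and this touches every value below. CD8α− replicate 2 was the dimmest as deposited, with a median signal of 17.4 against 22.9 to 35.1 on the others, and its Gapdh 3′ to 5′ signal ratio was 10.7, against 1.53 to 2.02 elsewhere. Between the CD8α− arrays 31 of 110 member probe sets (28.2%) differed over 2-fold, against 3 (2.73%) between the CD8α+ arrays. Over all tested probe sets those shares were 32.2% and 8.47%. Cd8a, which defines the groups, read 2014 and 2335 against 15.2 and 27.0 on its brightest probe set and was brighter in both CD8α+ arrays on all 5 of its probe sets, as the labels state. Of the 7 tested cDC1 markers 6 were brighter in both CD8α+ arrays and Batf3 was dimmer in both (-0.27). Their summed signals, mostly Cadm1, Ly75 and Irf8, were 6512 and 5845 in CD8α+ against 1134 and 1294 in CD8α− arrays, and those of the 6 tested cDC2 markers were 1544 and 1613 against 7973 and 6602. Marker sums of other cell types were higher in both CD8α− arrays: 648 and 775 against 3365 and 1674 for 5 tested NK cell genes, 1107 and 1118 against 1793 and 2602 for 4 monocyte and macrophage genes, 6407 and 6987 against 12759 and 9232 for 4 neutrophil genes, and 888 and 1036 against 1511 and 2276 for 5 plasmacytoid genes. Not all genes of these lists followed their sum. Tcf4 made up most of the plasmacytoid sum (650 and 762 against 1198 and 1808), while Siglech (0.66) and Ly6d (0.05) overlapped, as did Prf1 of the NK list and Csf3r of the neutrophil list. Vcam1 of the monocyte and macrophage list was brighter in both CD8α+ arrays (2.48). Most of that list's sum was Cd68 (654 and 583 against 1216 and 2014). S100a8 and S100a9 made up most of the neutrophil sum, and Gzma and Klrd1 most of the NK sum. The 3 tested B cell genes summed to 198 and 229 against 150 and 188, but went different ways. Ms4a1 was brighter in both CD8α+ arrays (1.45), Cd79b was dimmer in both (-1.02) and Ebf1 overlapped. The 4 T cell genes summed to 405 and 596 against 432 and 375, where the groups overlapped. None of the 3 annotated erythroid genes passed the filter. The part of these cells in the member results was not tested.

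No endosomal sorting gene passed the test over all probe sets. Limma gave 0 of 110 with an adjusted p under 0.05, the lowest being 0.193, and 0.00% of all 22519 tested probe sets passed. At an unadjusted p under 0.05 the count was 7 brighter in CD8α+ cells and 7 dimmer, 6.36% in each direction, beside 7.75% and 7.79% of all tested probe sets. Below, a gene is said to be called when it reached that unadjusted level. As genes, 4 of 57 were brighter and 4 dimmer, 7.02% each way, beside 7.13% and 8.82% of all genes. These shares are close to those of all genes. Both CD8α+ arrays lay above both CD8α− arrays for 31 probe sets (28.2%, beside 26.1% of all) and below them for 21 (19.1%, beside 26.2%). As genes, 15 lay above (26.3%, beside 25.6%) and 14 below (24.6%, beside 28.3%). The median member difference was 0.14, beside 0.01 for all tested probe sets.

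**Figure D1:**
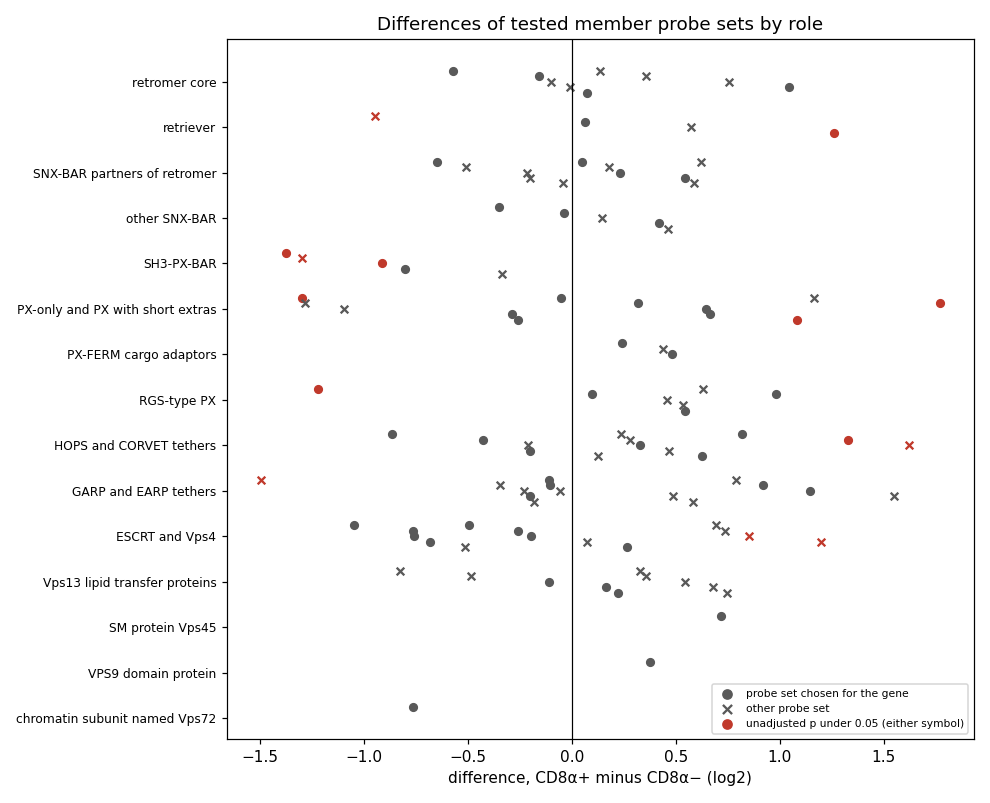
Difference between CD8α+ and CD8α− arrays (horizontal axis, log2) for each of the 110 tested member probe sets, grouped by role (vertical axis); circles are the probe sets chosen for a gene, crosses the others, and red marks an unadjusted limma p under 0.05. Points lie from -1.50 to 1.77 on both sides of 0 in most roles, and the 14 red points are split evenly between the sides.

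The counts in each direction depended on how the arrays were scaled. On the scale as deposited 8 members were brighter (10.3% of all probe sets were) and 0 dimmer (2.02% of all) at an unadjusted p under 0.05. Scaling to a common trimmed mean gave 3 (5.68% of all) and 9 (16.8%), and median centring gave 31 (27.3%) and 1 (3.99%). These scalings moved the median of all probe sets to 0.63, -0.21 and 0.63. Of the 57 genes, 34 kept their sign under all 3 scalings and 23 did not. Measured relative to the median of all probe sets, 49 kept it and 8 did not, namely Snx4, Snx8, Snx12, Vps13a, Vps26a, Vps37a, Vps53 and Vps54. The 8 called genes kept their sign both ways, but not their calls. On the deposited scale 3 of the 8 stayed called (Snx24, Vps11 and Vps26c), where Snx18 was at -0.59 and Snx14 at -0.49. With median centring 4 stayed called (these 3 and Snx21), and with trimmed-mean scaling 6 (Snx21 and Vps26c were lost). Leaving out CD8α+ replicate 1 kept 1 of the 8 (Snx24) called, and leaving out CD8α+ replicate 2 kept 0, since only the CD8α− arrays then give a spread. Without CD8α− replicate 1, 7 remained (Snx20 was lost), and without CD8α− replicate 2, 6 remained (Snx14 and Snx20 were lost). Over all members, leaving out CD8α+ replicate 1 gave 1 brighter (2.06% of all probe sets) and 0 dimmer (2.91%), and leaving out CD8α+ replicate 2 gave 1 (2.17%) and 1 (3.77%). Without CD8α− replicate 1 there were 24 (24.0% of all) and 19 (19.2%), with 6 at a limma adjusted p under 0.05 (12.8% of all). Without CD8α− replicate 2 there were 20 (17.0%) and 7 (11.3%). The stricter filter gave 3 (8.97%) and 4 (10.5%), 1 probe set per gene 4 (7.56%) and 4 (9.39%), and the replicate block 5 (8.67%) and 5 (7.43%). A limma adjusted p under 0.05 was reached by 3.26% of all probe sets with median centring, 0.329% with the stricter filter, 0.266% with an intensity trend and 0.0622% with the replicate block, but by 0 members in these settings.

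Promoter sequence was examined for letters that the members share. The 250 bases before each gene start were taken from RefSeq (GRCm38.p6), which held 53 promoters of 43 of the 65 genes. These promoters were searched on both strands for CACGTG, the E-box at the centre of the CLEAR element that the lysosomal regulator TFEB binds, for CCGGAAG, an ETS factor core, and for an interferon-stimulated response core. CACGTG stood in 13.2% of member promoters, against 6.02% of all 32851 promoters and 8.35% of those of tested genes. CCGGAAG stood in 18.9%, against 6.91% and 13.6%, and the interferon-stimulated response core in 5.66%, against 2.98% and 2.77%. In that order these were 7, 10 and 3 of the 53 member promoters, and some genes have several promoters. Counted by gene they were 6, 8 and 3 of 43, beside 865, 1390 and 291 of 8590 tested genes. Member genes were counted whether tested or not, among them Snx29, which held CCGGAAG and had no tested probe set. These differences were not tested. No member promoter held both CACGTG and CCGGAAG. The 6 genes with CACGTG were Snx18, Snx5, Snx8, Vps16, Vps26a and Vps33a, and their differences all lay below 0, from -1.38 to -0.04, in the quantile-normalized values. This was seen after the values were known and was not tested. On the deposited and the median-centred scale only Snx18 of the 6 lay below 0. Relative to all probe sets Snx18, Snx5, Vps16 and Vps33a stayed below 0 under each scaling, and Snx8 and Vps26a did not. CCGGAAG occurred in genes of both directions, Snx14 and Vps26c among them. The sequences below show these promoters, the first 3 with CACGTG in capitals and the last 2 with CCGGAAG in capitals, found there on the opposite strand. They are written 5′ to 3′ on the strand of the gene. A match is a description and not a binding site.
Snx18, chr13:113618565-113618814, minus strand: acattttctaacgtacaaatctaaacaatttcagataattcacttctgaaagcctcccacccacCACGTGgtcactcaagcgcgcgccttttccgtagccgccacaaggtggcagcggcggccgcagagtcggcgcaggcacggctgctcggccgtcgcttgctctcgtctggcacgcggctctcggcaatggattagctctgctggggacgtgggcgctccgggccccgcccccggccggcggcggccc
Snx5, chr2:144270573-144270822, minus strand: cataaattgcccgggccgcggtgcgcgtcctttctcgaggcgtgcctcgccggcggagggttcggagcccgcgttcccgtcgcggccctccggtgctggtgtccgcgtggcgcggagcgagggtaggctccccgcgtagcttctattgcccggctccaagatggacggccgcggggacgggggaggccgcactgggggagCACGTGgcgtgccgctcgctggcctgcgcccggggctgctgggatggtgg
Vps26a, chr10:62486806-62487055, minus strand: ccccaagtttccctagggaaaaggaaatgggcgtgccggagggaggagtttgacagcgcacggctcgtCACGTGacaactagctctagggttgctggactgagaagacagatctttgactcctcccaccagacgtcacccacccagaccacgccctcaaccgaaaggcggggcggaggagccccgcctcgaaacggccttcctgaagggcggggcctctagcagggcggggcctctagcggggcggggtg
Snx14, chr9:88438930-88439179, minus strand: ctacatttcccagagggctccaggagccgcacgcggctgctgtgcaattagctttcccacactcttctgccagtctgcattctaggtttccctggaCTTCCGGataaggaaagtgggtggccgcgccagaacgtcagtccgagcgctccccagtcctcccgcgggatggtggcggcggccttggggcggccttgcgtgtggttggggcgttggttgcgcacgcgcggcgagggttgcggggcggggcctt
Vps26c, chr16:94526630-94526879, minus strand: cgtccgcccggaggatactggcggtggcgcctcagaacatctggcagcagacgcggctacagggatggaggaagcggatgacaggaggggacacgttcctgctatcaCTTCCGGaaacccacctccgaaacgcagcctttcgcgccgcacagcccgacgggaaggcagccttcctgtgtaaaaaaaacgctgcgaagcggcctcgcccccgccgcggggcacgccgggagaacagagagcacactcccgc

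The CACGTG of Snx18 begins 186 bases before the gene start, that of Snx5 50 bases and that of Vps26a 182 bases. In Snx14 and Vps26c the ETS core begins 154 and 143 bases before the start. Snx14 was dimmer and Vps26c brighter in both CD8α+ arrays, so this shared core went with opposite directions.

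**Figure D2:**
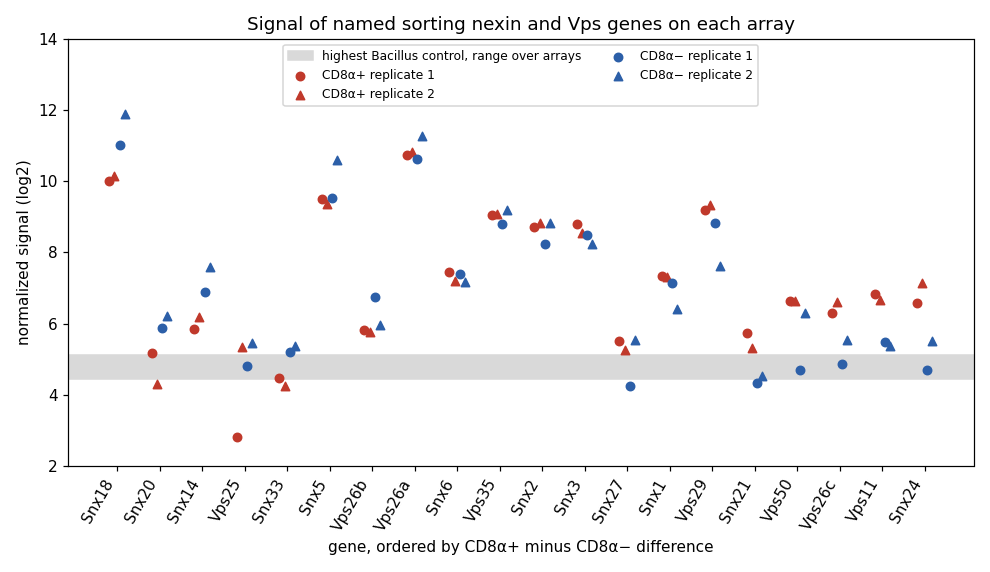
Normalized signal (vertical axis, log2) on each of the 4 arrays for the 20 named genes, ordered along the horizontal axis by their difference; the grey band is the range of the highest Bacillus control over the arrays. Red CD8α+ points lie below both blue CD8α− points at the left end, for Snx18, Snx20, Snx14 and Snx33 (Vps25, between them, overlaps), and above both at the right end, from Snx21 to Snx24.

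The sorting nexins that combine an SH3, a PX and a BAR domain shape membrane during endocytosis, and their chosen probe sets were all dimmer in CD8α+ cells. Both CD8α+ arrays lay below both CD8α− arrays for all 3 genes, beside 28.3% of all genes. Called dimmer were 2 of the 3, beside 8.82% of all genes. Snx18, whose promoter with its CACGTG is shown above and which acts in membrane remodelling and autophagosome formation, read 1021 and 1131 in CD8α+ against 2056 and 3776 in CD8α− arrays. Its CD8α− signals lay well apart from each other but both exceeded both CD8α+ signals. The difference was -1.38 ± 0.42, 2.59-fold, with a limma adjusted p of 0.266. A separate Snx18 probe set read 44.8 and 52.8 against 115 and 124, a difference of -1.30 ± 0.31, so both Snx18 probe sets gave nearly the same size. Snx33 read 22.1 and 19.2 against 36.7 and 41.1. In both CD8α+ arrays it was not above background, so its fold is at least 1.50 (fitted difference -0.91 ± 0.32, limma adjusted p = 0.294). Snx9, a dynamin-binding protein of clathrin-coated pits, read 264 and 199 against 270 and 594 (-0.80 ± 0.51), where the distance came mainly from CD8α− replicate 2. It lay above 0 on the deposited and the median-centred scale, but below the median of all probe sets under each scaling. The other tested Snx9 probe set read 124 and 118 against 110 and 211 (-0.33 ± 0.44), where the groups overlapped. Median difference of the 3 genes was -0.91.

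Among the sorting nexins with a PX domain and little else, Snx24, a member whose role is little described, had the largest difference of all 57 genes. It read 96.3 and 142 in CD8α+ against 26.0 and 45.2 in CD8α− arrays, a fitted difference of 1.77 ± 0.44 (limma adjusted p = 0.217). Its signal in CD8α− replicate 1 was within background, so no fold is given. Snx21 read 52.9 and 39.4 against 20.1 and 23.1, both of the latter within background. Its fold was at least 1.46 and its fitted difference 1.08 ± 0.34 (limma adjusted p = 0.274). Snx20, which binds the P-selectin ligand PSGL-1 and directs it to endosomes, lay the other way: it read 35.9 and 19.8 against 58.2 and 73.8, with CD8α+ replicate 2 within background (-1.30 ± 0.43, limma adjusted p = 0.284). Snx3, which works with retromer to return cargo such as the Wnt carrier Wntless, read 442 and 377 against 358 and 301, a difference of 0.32 ± 0.32 that did not pass. Snx10, known for its part in endosome and lysosome function of osteoclasts, had a pair of probe sets that disagreed. One gave 0.66 ± 0.35 and the other -1.09 ± 0.51. The remaining tested genes of this kind, Snx12, Snx15, Snx16 and Snx22, lay between -0.29 and 0.65 on their chosen probe sets and none passed. Another Snx12 probe set gave -1.28 ± 0.52, dimmer in both CD8α+ arrays, with CD8α+ replicate 1 within background. Another Snx16 probe set gave 1.17 ± 0.97 with overlapping groups. Over the 9 tested genes of this kind 2 were brighter and 1 dimmer at an unadjusted p under 0.05, beside 7.13% and 8.82% of all genes. Their median was 0.32, beside -0.02 for all genes.

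In the group of Snx13, Snx14, Snx19 and Snx25, 1 of 4 genes was called. It was dimmer, beside 8.82% of all genes called dimmer and 7.13% called brighter. Snx14, which holds the endoplasmic reticulum close to lipid droplets, read 57.3 and 73.3 against 118 and 193, so that both CD8α− arrays were brighter. The difference was -1.22 ± 0.40, 2.33-fold (limma adjusted p = 0.284). Snx25 lay on the other side at 0.98 ± 0.41, and Snx13 (0.10 ± 0.38) and Snx19 (0.54 ± 0.41) had overlapping groups on their chosen probe sets. Other Snx13 probe sets gave 0.63 ± 0.34 and 0.53 ± 0.36, each with both CD8α+ arrays brighter. On the latter only 1 CD8α+ array and no CD8α− array was above background.

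Retromer, the complex of Vps35, Vps29 and a Vps26 subunit that recognises cargo, showed no call. Vps35, its scaffold, read 533 and 542 against 443 and 590, so the groups overlapped (0.07 ± 0.33). The cargo-binding subunit Vps26a read 1717 and 1819 against 1588 and 2451 (-0.16 ± 0.37). It overlapped too, and its sign turned on the deposited and the median-centred scale, also relative to all probe sets. The alternative subunit Vps26b read 56.1 and 54.0 against 107 and 62.4 (-0.57 ± 0.40), dimmer in both CD8α+ arrays, while its other tested probe sets gave -0.01 ± 0.43 and 0.76 ± 0.80. Vps29, the subunit that binds regulators, read 585 and 640 against 451 and 195, a difference of 1.04 ± 0.51 (limma adjusted p = 0.397). Another bright Vps29 probe set read 424 and 423 against 390 and 381, a difference of 0.14 ± 0.30. On the first of these CD8α− replicate 2 lay far below the other arrays, and on the second all 4 arrays were close.

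The SNX-BAR proteins Snx1, Snx2, Snx5 and Snx6, which form the membrane tubules through which cargo leaves the endosome, gave 0 calls among 4 tested genes, with a median of 0.14. Snx1 read 161 and 160 against 142 and 85.6, brighter in both CD8α+ arrays (0.54 ± 0.39, limma adjusted p = 0.525). Snx2 read 417 and 452 against 302 and 451 (0.23 ± 0.36), and Snx6 read 173 and 147 against 167 and 143 (0.05 ± 0.32). Both overlapped. Snx5 read 721 and 658 against 745 and 1560 (-0.65 ± 0.47) on its brightest probe set, which lay above 0 on the deposited and the median-centred scale but below the median of all probe sets under each scaling. Its other 4 probe sets gave differences of -0.21, 0.18, 0.59 and 0.62. In CD8α+ cells and CD8α− replicate 1 these probe sets kept to a narrow range each. On CD8α− replicate 2 the chosen one read 1560, and the one with the largest positive difference read 238 against 612 on CD8α− replicate 1. The other SNX-BAR proteins Snx4, Snx8 and Snx30, of which Snx4 takes part in recycling and autophagy, lay between -0.35 and 0.42 with 0 calls among 3 tested genes.

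Retriever, a relative of retromer that returns integrins and other receptors, gave 1 call among 2 tested genes (7.13% of all genes were called brighter). Its subunit Vps26c read 79.1 and 97.6 against 29.1 and 46.2, above both CD8α− arrays, a difference of 1.26 ± 0.39 or 2.40-fold (limma adjusted p = 0.267). The scaffold subunit Vps35l gave 0.06 ± 0.33, with 93.6 and 98.0 against 79.8 and 105, and lay below 0 with trimmed-mean scaling but not relative to all probe sets. Its probe sets disagreed, since another gave -0.95 ± 0.36 (limma adjusted p = 0.321). The cargo adaptors of the PX-FERM kind act upstream of both complexes. Snx17, the adaptor of retriever, read 1499 and 1611 against 1172 and 1471 (0.24 ± 0.32), just above both CD8α− arrays. Snx27, the adaptor of retromer, read 45.9 and 38.3 against 19.2, within background, and 46.9 (0.48 ± 0.53), with overlapping groups. It lay below 0 with trimmed-mean scaling but not relative to all probe sets.

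The tethers HOPS and CORVET prepare fusion of late and early endosomes and share a core of Vps11, Vps16, Vps18 and Vps33a. Vps11 read 114 and 101 in CD8α+ against 44.3 and 41.4 in CD8α− arrays, with close replicates on both sides. The difference was 1.33 ± 0.31, 2.51-fold, with the smallest p among the 57 genes (limma adjusted p = 0.200). A further Vps11 probe set gave only 0.28 ± 0.31, with 105 and 120 against 92.0 and 92.8. The other core members lay below 0 on their chosen probe sets. Vps16 was at -0.86 ± 0.41 (137 and 173 against 215 and 364), Vps18 at -0.43 ± 0.44 and Vps33a at -0.20 ± 0.34. All 3 lay above 0 on the deposited and the median-centred scale, though below the median of all probe sets there. Other tested Vps18 probe sets gave 0.47 ± 0.51 with overlapping groups and 0.24 ± 0.33 with both CD8α+ arrays brighter. Of the subunits found only in HOPS, Vps41 gave 0.63 ± 0.37 and Vps39 gave 0.33 ± 0.31. A dimmer Vps41 probe set, named after its values were seen, read 77.0 and 51.2 against 23.7 and 17.5, at least 2.01-fold (1.62 ± 0.39, limma adjusted p = 0.205), and the third gave -0.21 ± 0.56. Vps8, found in CORVET, gave 0.82 ± 0.63, with overlapping groups and no CD8α− array above background.

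GARP tethers vesicles that arrive at the Golgi, and EARP, which has Vps50 in place of Vps54, acts in recycling. Vps50 read 99.4 and 100.2 against 26.0 and 78.4 (1.14 ± 0.61, limma adjusted p = 0.427). It was above both CD8α− arrays, but these differed widely, the first being within background. Another Vps50 probe set read 41.0 and 26.0 against 45.1 and 25.7 (-0.06 ± 0.46), where the groups overlapped. Vps51, shared by both tethers, gave 0.92 ± 0.42 and 0.79 ± 0.46 on its 2 tested probe sets. Vps52 (-0.11 ± 0.38) and Vps53 (-0.11 ± 0.36) overlapped on their chosen probe sets. Each had another probe set that was brighter in both CD8α+ arrays, at 0.58 ± 0.30 for Vps52 and at 1.55 ± 0.76 for Vps53. On the latter only 1 CD8α+ array and no CD8α− array was above background. Vps54 gave -0.20 ± 0.34 on its brightest probe set, and its 5 probe sets spanned -1.50 to 0.49, the widest span of any member gene. The lowest of these, named after its values were seen, read 30.7 and 25.2 against 69.6 and 88.1 (-1.50 ± 0.34, limma adjusted p = 0.193). None of the 5 tether genes was called on the chosen probe set.

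In the ESCRT group, 7 of 8 tested genes lay below 0 and 0 were called, with a median of -0.59 beside -0.02 for all genes. Vps25, a core ESCRT-II subunit, read 6.82 and 40.9 against 28.0 and 43.7, so its difference of -1.05 ± 0.93 came from CD8α+ replicate 1. That signal was raised to the floor in the fit, and only 1 array of each group was above background. Vps37b (-0.77 ± 0.30, limma adjusted p = 0.338) and Vps28 (-0.76 ± 0.41), both of ESCRT-I, were dimmer in both CD8α+ arrays, as were the ATPases that disassemble ESCRT filaments, Vps4a (-0.68 ± 0.41) and Vps4b (-0.50 ± 0.30). The other Vps4b probe sets went the other way, at 0.74 ± 0.80 with overlapping groups and at 0.69 ± 0.46 with both CD8α+ arrays brighter. Vps36 gave -0.20, Vps37a -0.26 and Vps37c 0.27. The signs rest on the scaling: on the deposited and the median-centred scale 7 of the 8 lay above 0, with medians of 0.33 and 0.34, which relative to all probe sets were -0.30 each. Separate probe sets of Vps37a (0.85 ± 0.31) and Vps37c (1.20 ± 0.44), named after their values were seen, lay above 0, with limma adjusted p-values of 0.313 and 0.318, the first against the sign of its chosen probe set. The Vps13 proteins carry lipids between membranes, and Vps13a, Vps13b and Vps13d lay between -0.11 and 0.22. Vps45, which guides SNARE pairing on endosomes, gave 0.72 ± 0.39, and Vps9d1 gave 0.38 ± 0.45. Vps72, a chromatin-remodelling subunit that shares only the name, gave -0.76 ± 0.56.

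**Figure D3:**
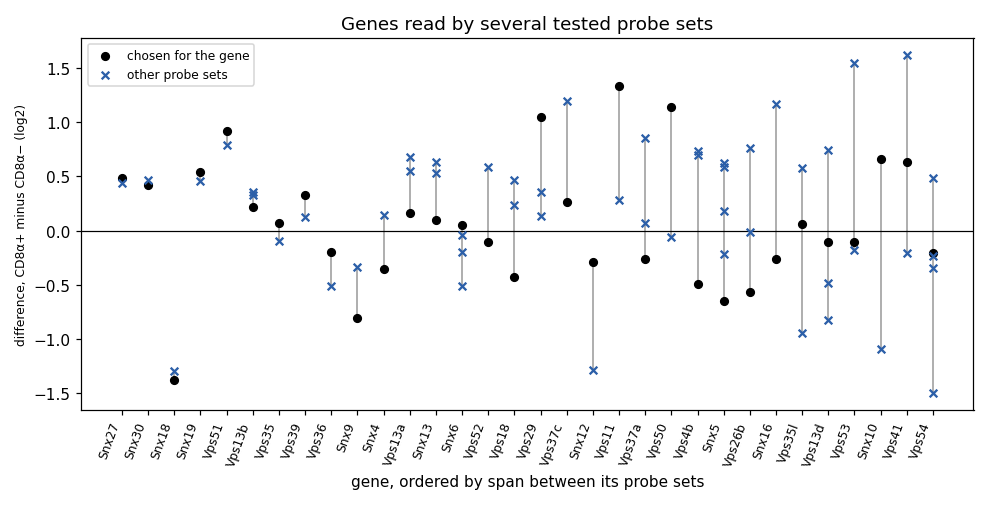
Difference between CD8α+ and CD8α− arrays (vertical axis, log2) on every tested probe set of the 32 genes that had several, ordered by the span within the gene; black points are the chosen probe sets and blue crosses the others. Spans run from 0.04 for Snx27 to 1.98 for Vps54, and lines that cross 0 mark genes whose probe sets differ in sign.

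Agreement between probe sets of 1 gene limits how far single values can be read. In 17 of the 32 genes with several tested probe sets the signs differed, and in 13 the differences spanned over 1 log2 unit, with a median span of 0.90. Snx18 (0.08), Snx27 (0.04), Snx30, Snx19 and Vps51 had the most similar readings. Of the 8 genes at an unadjusted p under 0.05, Snx18 and Vps11 were read by more than 1 tested probe set, and only Snx18 passed that level on both.

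**Figure D4:**
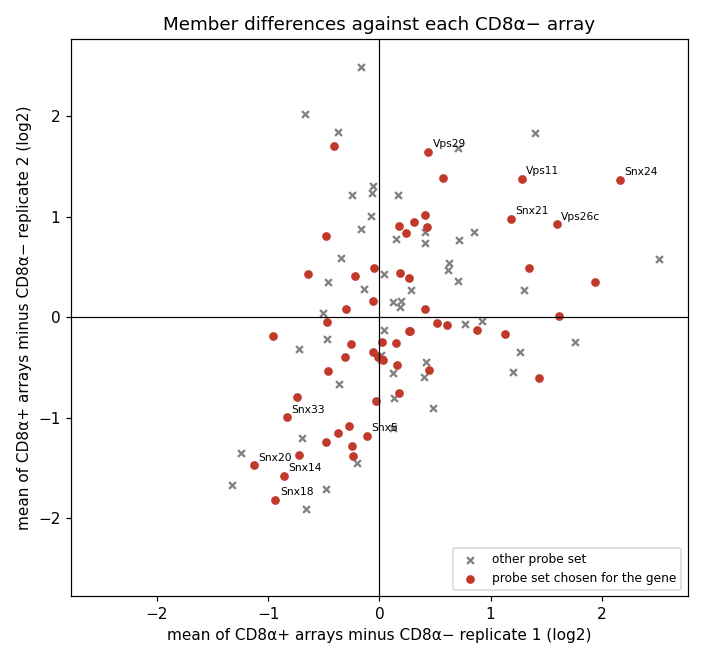
Difference of the CD8α+ mean from CD8α− replicate 1 (horizontal axis, log2) and from CD8α− replicate 2 (vertical axis, log2) for the 110 tested member probe sets; red points are the probe sets chosen for a gene. Both axes share the CD8α+ arrays. Snx24, Vps11 and Vps26c lie at the upper right and Snx18, Snx14 and Snx20 at the lower left.

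Against CD8α− replicate 1 alone, 15 member probe sets (13.6%, beside 12.5% of all tested) were over 2-fold higher and 3 (2.73%, beside 11.6%) over 2-fold lower in CD8α+ cells. Against CD8α− replicate 2 alone these numbers were 16 (14.5%, beside 19.9%) and 17 (15.5%, beside 17.2%). These comparisons share the CD8α+ arrays, and the differences between the shares were not tested.

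Other genes of the same routes were read from a list of complexes, regulators and cargo. Of 68 listed partner genes, 66 were tested: 3 were brighter and 2 dimmer in CD8α+ cells at an unadjusted p under 0.05 (4.55% and 3.03%, beside 7.13% and 8.82% of all genes), 61 did not reach it, and limma gave 0 at an adjusted p under 0.05. Igf2r, the large mannose 6-phosphate receptor that carries hydrolases to the lysosome, read 728 and 662 against 119 and 152. That is 5.16-fold, or 2.37 ± 0.33 (limma adjusted p = 0.121). Lrp1, an uptake receptor returned to the surface through Snx17, read 79.6 and 56.9 against 266 and 320, a difference of -2.12 ± 0.35 or 4.34-fold the other way (limma adjusted p = 0.140). Both kept an unadjusted p under 0.05 when any 1 array was left out. The small mannose 6-phosphate receptor M6pr gave 0.74 ± 0.34, and the other 4 tested cargo receptors, Slc11a2, Sorl1, Sort1 and Tfrc, lay between -0.41 and 0.57. In the CCC complex, which works with retriever, Ccdc93 read 90.8 and 111 against 13.1 and 36.2 (2.20 ± 0.58, limma adjusted p = 0.231, past the unadjusted level but not without CD8α+ replicate 2), and Commd4 gave -0.87 ± 0.32 (limma adjusted p = 0.314). The Ccdc93 signal in CD8α− replicate 1 was within background. Other tested Ccdc93 probe sets gave 0.30 ± 0.51 with overlapping groups and 1.14 ± 0.35 with both CD8α+ arrays brighter. The Vps33b partner Vipas39 gave 1.14 ± 0.37 (limma adjusted p = 0.281). Commd4 and Vipas39 fell short without either CD8α+ array, and Vipas39 also without CD8α− replicate 1. In the WASH complex, which builds actin on endosomes with retromer, 0 of 5 were called, with Washc1 at -1.18 ± 0.51 and Washc2 at -1.09 ± 0.51. ESCRT subunits outside the Vps names gave 0 of 22, with medians of -0.15 for ESCRT-0 and ESCRT-I and -0.24 for the rest.

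**Figure D5:**
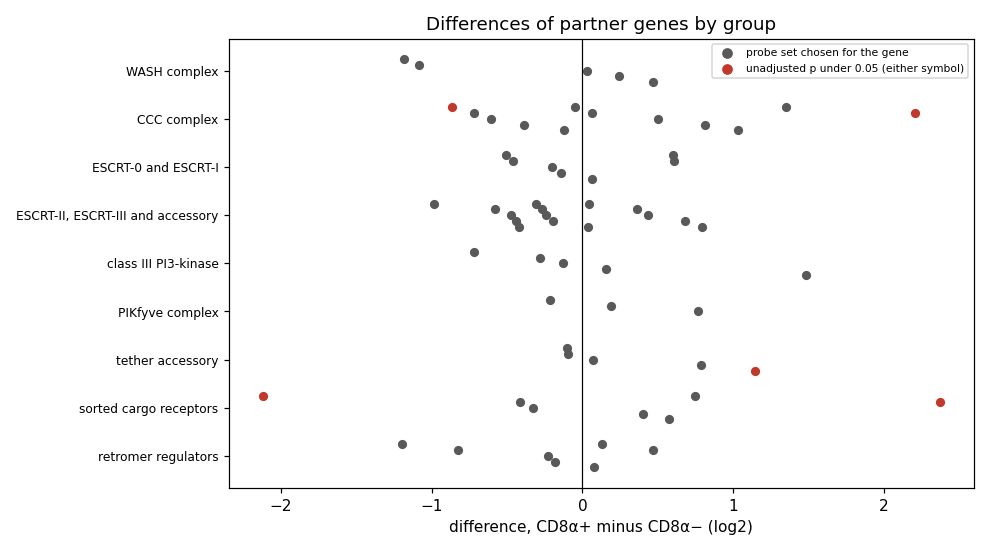
Difference between CD8α+ and CD8α− arrays (horizontal axis, log2) for the 66 tested partner genes, 1 probe set each, by group (vertical axis); red marks an unadjusted limma p under 0.05. Igf2r (2.37) and Lrp1 (-2.12) of the sorted cargo receptors and Ccdc93 (2.20) of the CCC complex lie farthest from 0.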

How the data were processed

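RNA of CD8α+ and CD8α− spleen dendritic cells was measured on 2 arrays each. The authors deposited 1 intensity per probe set and array on a linear scale, made with MAS5 per the submitters' processing notes. No scaling target was found in the labels. The series' design text and the labels' protocols describe different RNA extraction and labelling, and which applies is not settled here. Of 45101 probe sets, 64 controls were left out of the tests. The platform annotation gave 34945 of the others 1 symbol, 932 several and 9160 none, and those with several were not named. Because array medians differed as deposited, log2 signals were quantile normalized, raised to a floor of 6.99 (the mean 25th percentile) and filtered as stated in the results, which left 22519 probe sets and 10532 genes. Probe sets ending in _x_at stood for a gene only where no other was tested. The fit used limma 3.58.1 under R 4.3.3 (lmFit and then eBayes without trend, two-sided, Benjamini-Hochberg over all tested probe sets). Residual degrees of freedom were 2 and prior ones 2.48, and the number of arrays limits the precision. A fold is given only where all 4 arrays exceeded background. Where no array of 1 group did, a lower bound is given, which sets the brighter mean against the higher of background and own signal. The fit was tested on simulated data with the same spread in both groups. Where a difference was simulated, it was larger than any member difference. Smaller differences and unequal spreads were not simulated. Named genes were those at an unadjusted p under 0.05, the 5 largest differences in each direction and 10 genes of retromer and its partners whatever their values. Alternatives covered scaling, floor, filter, variance model, 1 probe set per gene, a replicate block and leaving out each array. The members, gene lists and marker lists were chosen with earlier results of these data known. Python 3.11.15, pandas 2.3.3 and matplotlib 3.10.9 were used for tables and figures.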

Additional observations from a re-analysis of the deposited data

How the results depend on the processing

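Among the member probe sets, the count at an adjusted p under 0.05 was 0 in each alternative that kept every array. Member counts with 1 array left out are given in the results beside the shares of all probe sets. The count brighter in CD8α+ cells at an unadjusted p under 0.05, 7 in the reported fit, became 3 with trimmed-mean scaling, 31 with median centring, 3 with the stricter filter and 4 with 1 probe set per gene, and ranged from 1 to 24 when 1 array was left out. The count dimmer, also 7, became 0 on the deposited scale, 1 with median centring, 4 with the stricter filter and 4 with 1 probe set per gene, and ranged from 0 to 19 when 1 array was left out. Fewer probe sets are tested under the stricter filter and with 1 probe set per gene. The median member difference of 0.14 (beside 0.01 for all probe sets) became 0.69 on the deposited scale and with median centring (beside 0.63 each). It was -0.094 with trimmed-mean scaling (beside -0.21) and -0.040 with the stricter filter (beside -0.009). When 1 array was left out it ranged from -0.043 to 0.17. Among partner genes, 3 brighter (4.55%, beside 7.13% of all genes) became 6 on the deposited scale (9.09%, beside 10.6%), 18 with median centring (27.3%, beside 29.4%) and 5 with an intensity trend (7.58%, beside 7.99%). The 2 dimmer (3.03%, beside 8.82%) became 0 (beside 2.38%), 1 (beside 4.45%) and 4 (beside 9.43%) in those settings and 5 with trimmed-mean scaling (beside 16.7%). When 1 array was left out they ranged from 1 to 14 and from 1 to 21, the highest without CD8α− replicate 1 (21.2% and 31.8%, beside 22.7% and 21.4%). Apart from the construction of the filters, the cause was not tested. The replicate block, which uses the numbers in the sample titles, gave 5 member probe sets brighter and 5 dimmer and kept 6 of the 8 genes at an unadjusted p under 0.05. Within-group deviations of same-numbered arrays correlated at r = 0.03 across 22519 probe sets, and nothing in the labels says that a number marks a shared animal. When 1 array is left out, the lone array of its group is assumed to vary like the other group.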
